A study of Microcebus murinus with 18 samples.

Results

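The genes described are those of synaptic vesicle release and recycling in the temporal cortex of the grey mouse lemur, Microcebus murinus, a small primate used as a model of brain aging. The set held 58 genes, chosen by symbol for their roles as SNARE proteins and SNARE assembly factors, synaptotagmins and DOC2A, vesicle proteins, active zone scaffolds and endocytic proteins, out of 19775 genes with a probe set of their own on the array. Every probe set annotated to a member symbol was taken, which gave 147 probe sets for 57 members and none for RIMS3. RNA of 18 captive-bred animals was hybridised to human HG-U133 Plus 2.0 arrays, with 1 array per animal. The young adult group held 6 animals (4 females and 2 males) and the healthy old group 10 animals (7 females and 3 males). The third group held 2 old females called "AD-like", whose brains carried β-amyloid plaques and cortical atrophy of the kind seen in Alzheimer's disease. The paper gives these females a higher mean age than the healthy old group. A difference between these groups may therefore also be one of age, which was not tested. No animal was said to carry a transgene or to have been treated, so the AD-like state was a post-mortem finding in 2 animals and not an induced one.

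A nerve terminal releases transmitter when vesicles docked at the active zone fuse with the plasma membrane. Fusion is driven by SNARE proteins, a VAMP on the vesicle and a syntaxin with SNAP25 on the plasma membrane, and is triggered by calcium through synaptotagmins, while NSF with its SNAP adaptors takes the spent complexes apart. Clathrin, its adaptor complex AP2, dynamin and synaptojanin then recover the membrane. These proteins are abundant in cortical neurons and are widely used as markers of synapses.

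A gene was tested when a probe set of it reached a signal of 150, in the scanner software's units scaled to a trimmed mean of 100 on each array, on at least 3 of the 18 arrays. This held for 84 member probe sets of 49 members, and each of these members was represented by its probe set with the highest mean signal. The other 9 members were not tested. RIMS3, an active zone protein, had no probe set in the table, and SNAP29 and STX7 (SNAREs of intracellular membranes), CPLX1 (a complexin, which clamps SNARE complexes), DOC2A (a calcium sensor), SYN3 (a synapsin), RAB3A (the GTPase of synaptic vesicles), UNC13A (the main vesicle priming factor) and SH3GL2 (endophilin) stayed too dim. The brightest probe set of these averaged between 33.1 for SYN3 and 84.3 for STX7. All 58 symbols name a gene in the RefSeq annotation of the lemur, so a dim human probe gives no information on whether the lemur gene is expressed. DNM3 passed the filter on 3 arrays only.

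Array medians lay between 30.8 and 54.4, and rank correlations between arrays between 0.613 and 0.89. On 4 arrays the poly-A control RNA that is added before labelling was missing (highest signal 19.0, whereas the lowest of the other 14 arrays was 333.7). These were young adult male 2, old males 1 and 2 and AD-like female 2. They are named as such beside some, but not all, of the results they touch. Of the neuron markers, 11 of 12 were bright enough to test, with a summed signal of 31925.8 to 72634.6 in young adult, 28968.2 to 73856.3 in old and 31593.2 and 60119.3 in AD-like animals. Astrocyte markers were tested for 6 of 8 genes (GFAP and S100B were too dim), oligodendrocyte markers for 6 of 8, endothelial markers for 3 of 6 and microglial markers for 1 of 8, so the glial content could be followed only in part. The tissue was bulk cortex, in which fewer cells of a type and less RNA per cell cannot be told apart.

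Across the whole set, no member passed an adjusted p of 0.05 in any comparison of the 3 groups with limma. Over all 14567 probe sets tested, 1 did so for AD-like against old animals (0.00686%) and none in the other pairs. Old animals had the higher level of 34 of the 49 members (69.4%, against 55.8% of all 8660 genes), and the median log2 difference from young adults was 0.21 (0.05 over all genes). AD-like animals had the lower level of 36 of the 49 members in comparison to old animals (73.5%, against 54.4% of all genes), with a median log2 difference of -0.20 (-0.05 over all genes), and of 32 members in comparison to young adults (65.3%, against 49.6% of all genes), with a median of -0.12 (0.00 over all genes). Each pair of comparisons shares a group of animals, so they are not independent.

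For old against young adult and AD-like against old animals, the shift went with the brightness of the genes. Among genes with a mean signal of 500 or more, the median difference of old from young adult animals was 0.25 over 30 members, of which 22 lay above 0 (73.3%). It was 0.21 over all 1975 genes, of which 79.7% lay above 0. For AD-like against old animals it was -0.41 over these members, 27 of which were lower (90%), and -0.24 over all such genes, of which 75.7% were lower. The 19 dimmer members had medians of 0.14 and 0.16 in the 2 comparisons, so the lower levels of AD-like animals were mostly those of bright members. Under quantile normalization, which gives every array the same distribution, the medians over all 49 members were 0.06 and -0.10. For AD-like against young adult animals, the bright members had a median of -0.24, with 23 lower (76.7%). All genes of that brightness had a median of -0.01 there, with 51.2% lower. The lower level of the bright members was that of AD-like female 2 (-0.69), while female 1 was at 0.07 and the young adult mean was -0.11. Over all 49 members the median difference from young adults was 0.01 without female 2 and -0.36 without female 1.

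**Figure D1:**
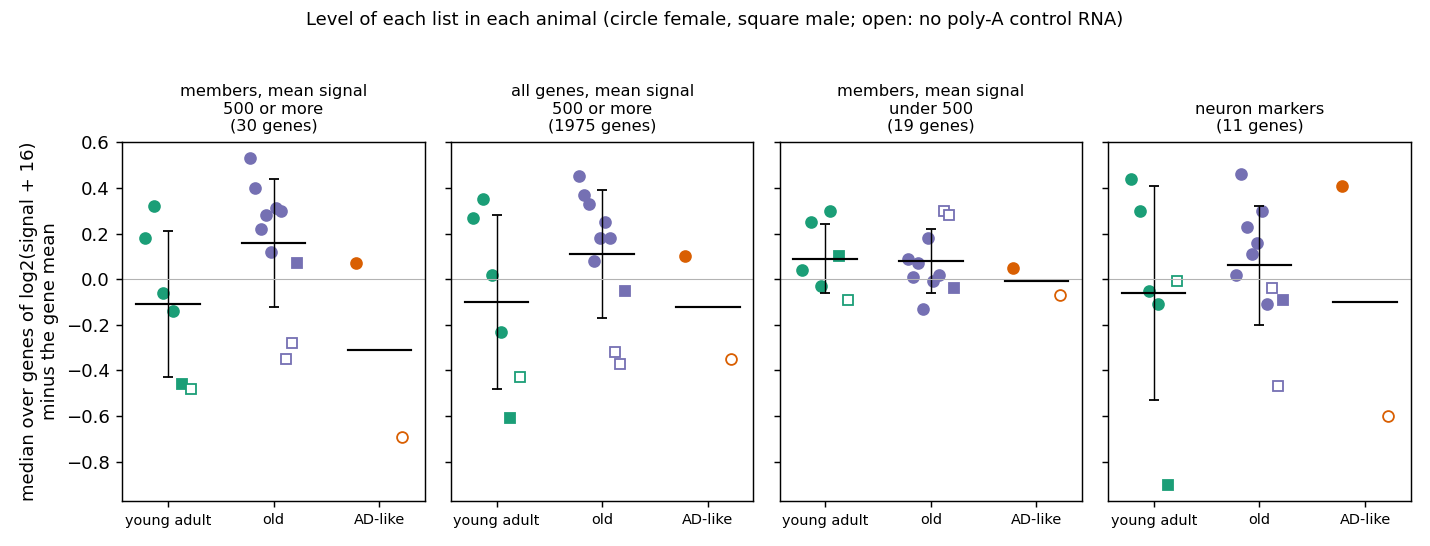
Each point is 1 animal, placed at the median over the genes of a list of log2(signal + 16) minus the gene's mean over all animals; bars give the group mean and, for groups above 2 animals, the SD, and open symbols are arrays without poly-A control RNA. The bright members (left panel) ran from -0.48 to 0.32 in young adult and from -0.35 to 0.53 in old animals, with the AD-like females at 0.07 and -0.69, and all bright genes ran from -0.61 to 0.35 and from -0.37 to 0.45, with the AD-like females at 0.10 and -0.35.

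The AD-like animals did not share one level. AD-like female 1 was below the mean of the old animals for 26 of 49 members, with a median difference of 0.00, whereas AD-like female 2 was below it for 35, with a median of -0.48. Over all genes the shares below the old mean were 47.1% for female 1 and 53.9% for female 2. Female 2 lay under all 10 old animals for 14 members (14.8% of all genes did so) and above all of them for none (9.82% of all genes). Female 1 lay under all of them for 4 members (8.07% of all genes) and above for 3 (6.37%). Without female 2 the median over the members in each of the 5 roles lay between -0.06 and 0.03 in AD-like against old animals. The array of female 2 was the one without poly-A control RNA, and her neuron markers were also low (-0.60 on the log2 scale, against 0.41 in female 1). The other animals whose arrays lacked the control RNA were below the mean of the animals of their groups with the control RNA for 34 members (young adult male 2; 50.7% of all genes), 27 members (old male 1; 50.3%) and 29 members (old male 2; 52%). AD-like female 2 was below female 1 for 38 members (55.9% of all genes), and 21 members were below in all 4 such animals, as were 24.5% of all genes. Low levels were not confined to these animals. Young adult male 1, whose array had the control RNA, was at -0.34 over the members, against -0.42 in young adult male 2. With the 4 arrays left out, the median over the members was 0.14 for old against young adults and -0.14 for AD-like female 1 against old animals, and with the presence of the control RNA as a block it was 0.22 and -0.18.

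**Figure D2:**
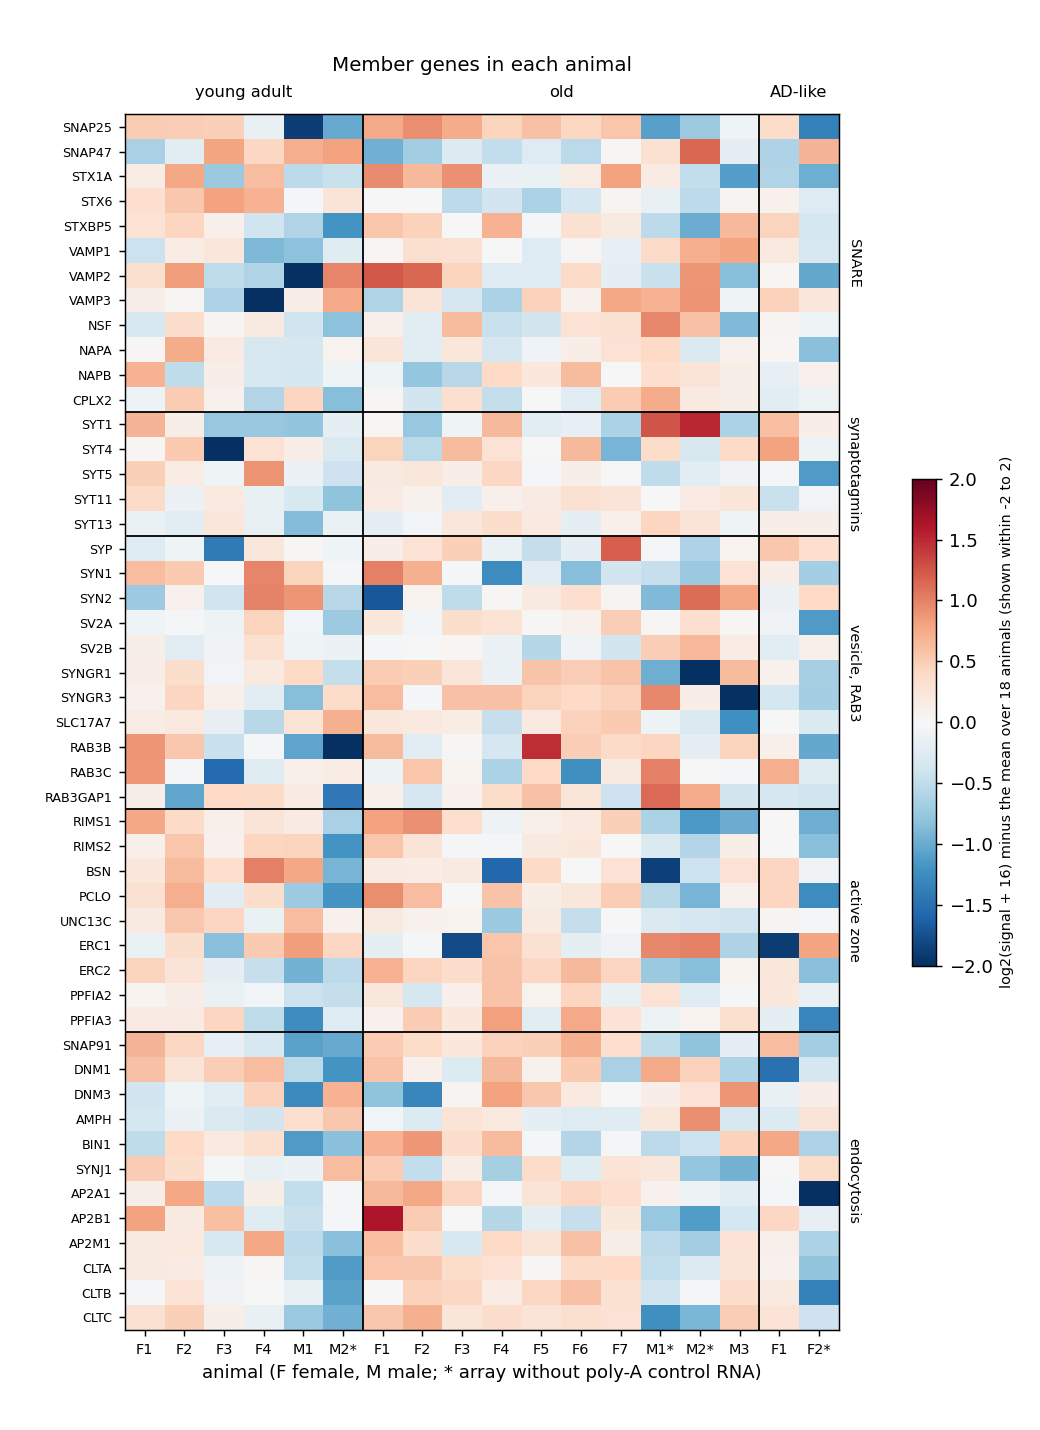
Each row is a tested member, each column an animal, and the colour gives log2(signal + 16) minus the member's mean over the 18 animals, held within -2 and 2; an asterisk marks an array without poly-A control RNA. Blue runs down the columns of young adult male 2, old males 1 and 2 and AD-like female 2 in many of the rows from RIMS1 to CLTC, while STX6 is blue or pale in the old animals of both sexes. Young adult male 1, whose array had the control RNA, was also low over the endocytosis genes (median -0.51). Over the active zone genes that animal was not low (0.16).

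Old and young adult animals were compared first. At an unadjusted p of 0.05, 1 member was higher in old animals (VAMP1; 3.57% of all genes were called in that direction) and 2 were lower (STX6 and UNC13C; 2.26% of all genes). No member's groups were free of overlap (0.0115% of genes were all higher and 0.0231% all lower). In the comparison of AD-like with old animals, no member was higher (1.14% of genes) and 5 were lower (AP2A1, PPFIA3, SV2A, DNM1 and CLTB; 3.83% of genes). With AD-like against young adult animals no member was higher (1.09% of genes) and 1 was lower, AP2A1 (3.29% of genes). Each of these is given with its animals below, by role.

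**Figure D3:**
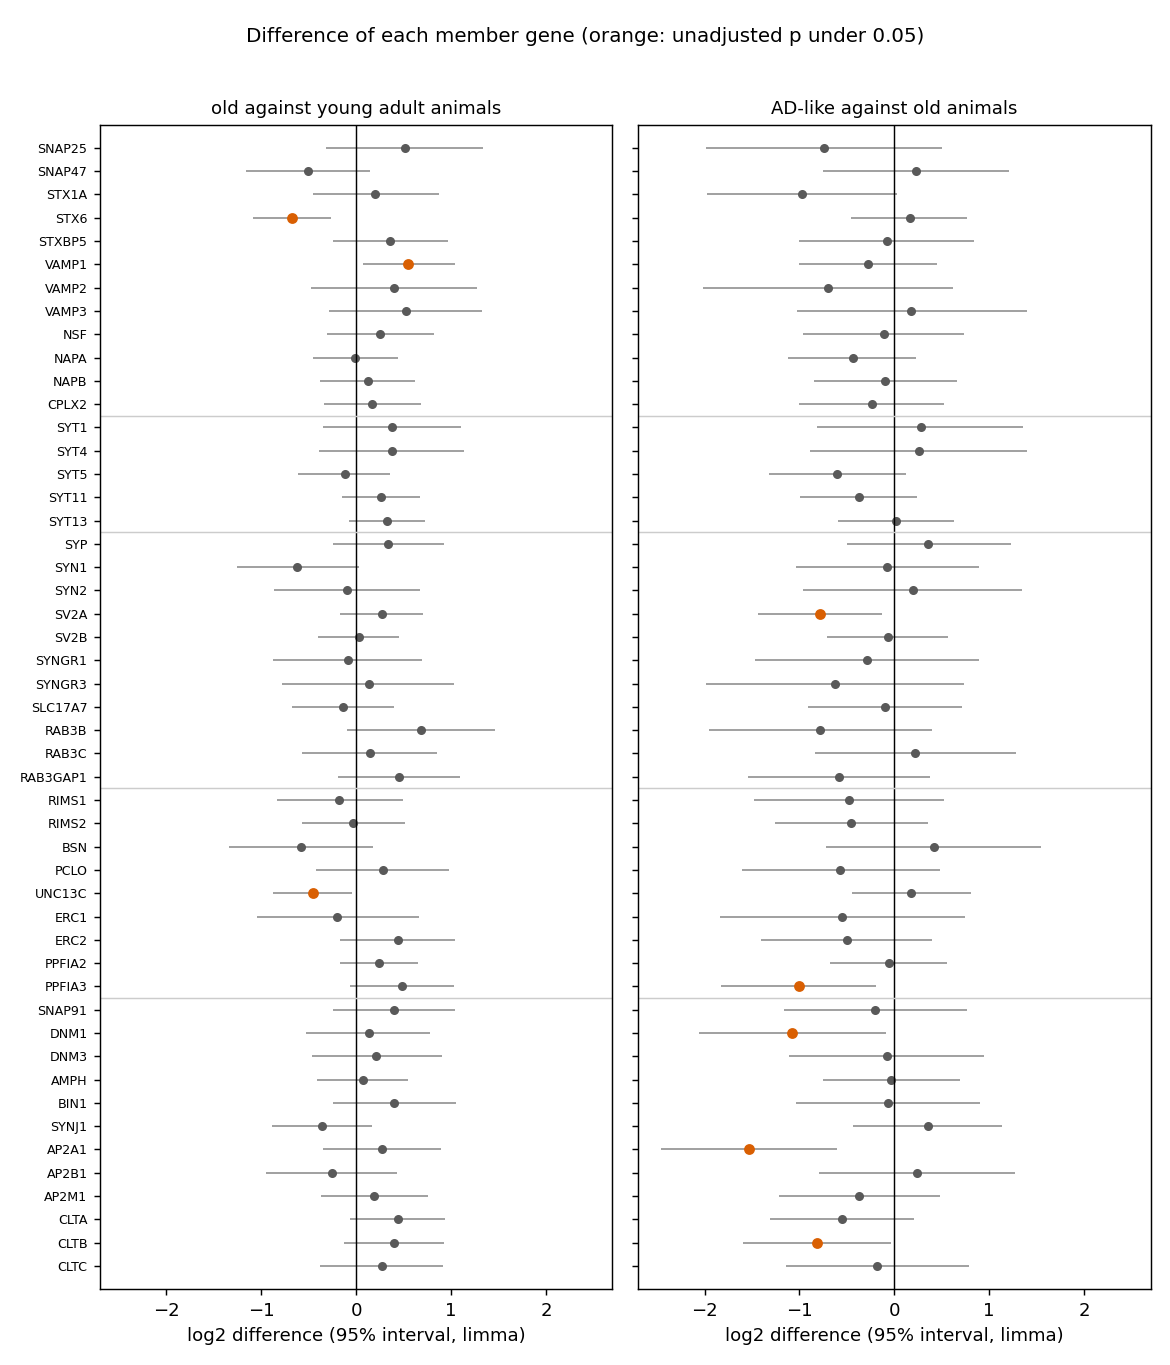
Log2 differences of the 49 tested members with their 95% intervals from limma, by role from SNARE proteins at the top to endocytosis at the bottom; orange points have an unadjusted p under 0.05. The intervals of AD-like against old animals, which rest on 2 AD-like animals, are wider than those of old against young adult animals.

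STX6, a syntaxin of the trans-Golgi network and endosomes, had the smallest p of the age comparison. Its signal (probe set 214441_at) ran from 167.4 over a median of 237.8 to 308.6 in young adult animals and from 103.6 over 141.7 to 178.2 in old animals, with 181.0 and 140.0 in the AD-like females. All 10 old animals lay below the young adult median, and the groups overlapped through 1 low young adult. The log2 difference was -0.68 (SE 0.20, 95% interval -1.09 to -0.27; limma, p = 0.00241, adjusted p = 0.836), and leaving out any 1 animal kept it between -0.77 and -0.61. On the arrays with poly-A control RNA alone it was -0.69. A second STX6 probe set, 1552618_at, differed by 0.09 (SE 0.40), so that the result rests on 1 of the 2 tested probe sets. The study had singled out this gene on the same animals, and its value is not independent evidence.

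VAMP1, a vesicle SNARE closely related to VAMP2, had the smallest p among the members higher in old animals. It measured 121.6, 188.1 and 286.6 (lowest, median and highest) in young adults and 198.4, 273.7 and 426.9 in old animals, with 277.7 and 191.0 in AD-like animals. All 10 old animals exceeded the young adult median. The highest old signals were those of old males 1, 2 and 3 (318.3, 410.8 and 426.9). The arrays of males 1 and 2 lacked poly-A control RNA. Within females alone VAMP1 did not pass the unadjusted threshold. The log2 difference was 0.55 (SE 0.23; limma, p = 0.0277, adjusted p = 0.836), between 0.44 and 0.67 with 1 animal left out, and it lost the unadjusted threshold without young adult female 4 or male 1. On the 14 arrays with poly-A control RNA VAMP1 differed by 0.49 (p = 0.0768), and ERC2 was there the 1 member higher in old animals (0.63, SE 0.24, p = 0.0190, adjusted p = 0.693).

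The other SNAREs of the synapse did not pass the threshold. SNAP25, the plasma membrane SNARE of neurons, measured 5681.9, 24216.2 and 30021.5 in young adults, 9876.3, 29779.7 and 39885.3 in old animals, and 27065.2 and 8268.4 in the AD-like females. Its log2 difference was 0.51 (SE 0.40, p = 0.213, adjusted p = 0.888 in limma) for old against young adults and -0.74 (SE 0.60, p = 0.227, adjusted p = 0.972) for AD-like against old animals. Of the low values of SNAP25, those of young adult male 2 (10443.0), old males 1 and 2 (9876.3 and 12724.4) and AD-like female 2 were read on the arrays that lacked poly-A control RNA. The lowest, in young adult male 1, was not. The 5 young adult and old males lay between 5681.9 and 19878.1 and the 11 females of these groups between 19000.7 and 39885.3.

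VAMP2, the main vesicle SNARE of the forebrain, had log2 differences of 0.40 (SE 0.42) with age and -0.70 (SE 0.63) in AD-like against old animals, and its range in young adults, from 406.2 to 3694.4, was among the widest of the set. That range was of probe set 201556_s_at. Young adults ran from 786.9 to 3487.8 on 214792_x_at and only from 853.2 to 1259.2 on 201557_at. STX1A, the syntaxin of the presynaptic membrane, was at 363.6 and 277.4 in the AD-like females, against 252.5, 628.2 and 1095.6 in old animals. Both AD-like animals were thus in the lower part of the old range, and the log2 difference of -0.97 (SE 0.48, p = 0.0574, adjusted p = 0.972) kept between -1.15 and -0.78 with any 1 animal left out. SNAP47, a widely expressed relative of SNAP25, had a median signal of 143.0 in young adult and 72.1 in old animals, with a log2 difference of -0.51 (SE 0.31, p = 0.121).

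Among the factors that assemble or recycle SNARE complexes the differences were small. NSF, the ATPase that dissociates them, differed by 0.25 (SE 0.27) with age and by -0.11 (SE 0.41) in AD-like against old animals. CPLX2, the tested complexin, differed by 0.17 (SE 0.24) and -0.24 (SE 0.37). NAPA, the adaptor of NSF, had 832.7 and 444.9 in the AD-like females against 632.6 to 1069.6 in old animals, so that only female 2 was outside the old range. Over the 12 tested genes of SNAREs and their assembly, the median difference was 0.23 with age, with 9 above 0, and -0.18 in AD-like against old animals, with 9 below 0. Of all genes, 55.8% lay above 0 with age and 54.4% below 0 in AD-like against old animals. Under quantile normalization the medians of this role were 0.08 and -0.11.

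The tested synaptotagmins, vesicle proteins of which several sense calcium, had a median difference of 0.32 with age over 5 genes, and none passed the unadjusted threshold. The median was 0.05 in females and 0.14 on arrays with poly-A control RNA. SYT1, the sensor for synchronous release, measured 2616.1, 3301.4 and 7220.4 in young adults, 2653.7, 4140.1 and 12883.6 in old animals and 6873.7 and 4962.0 in AD-like animals. Its log2 differences were 0.38 (SE 0.35) with age and 0.28 (SE 0.52) in AD-like against old animals, and both AD-like females lay above the old median. The 2 highest old values, 10855.1 and 12883.6, were those of old males 1 and 2, whose arrays lacked poly-A control RNA. On the arrays with the control RNA the SYT1 differences were 0.07 and 0.83. SYT13, a synaptotagmin without calcium binding of its own, varied least of all members within groups (SD 0.27 on the log2 scale) and differed by 0.32 (SE 0.19, p = 0.114) with age, its AD-like values being 887.6 and 879.6.

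SYT5, a synaptotagmin of dense-core and synaptic vesicles, went the other way in AD-like female 2. It was at 543.5 in female 1 and 243.5 in female 2, against 384.5, 576.8 and 741.6 in old animals. The log2 difference from old animals was -0.60 (SE 0.35, p = 0.0996, adjusted p = 0.972), and -0.05 without female 2. The synaptotagmins as a whole had a median of 0.02 in AD-like against old animals, with 3 of 5 above 0 (45.6% of all genes).

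Among the vesicle proteins, SV2A, a vesicle glycoprotein and the binding site of the antiepileptic levetiracetam, was the member whose AD-like and old animals did not overlap (all lower; 1.84% of genes did this, and 1.25% were all higher). Its signals (203069_at) were 702.8, 1109.8 and 1594.0 in young adults, 1119.7, 1298.1 and 1648.0 in old animals and 1105.3 and 523.0 in the AD-like females. Female 1 thus lay just under the lowest old animal, and the distance was carried by female 2. The log2 difference from old animals was -0.78 (SE 0.31, 95% interval -1.44 to -0.13; limma, p = 0.0209, adjusted p = 0.954). It was -0.25 without female 2 and -1.31 without female 1. Old animals were above the young adult median in 10 of 10 cases, with a log2 difference of 0.27 (SE 0.21, p = 0.211). SV2A too had been singled out by the study on these animals. Its paralogue SV2B differed by 0.03 (SE 0.20) and -0.07 (SE 0.31).

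SYP, synaptophysin, the classical vesicle marker, did not follow SV2A. It measured 81.7, 227.8 and 287.7 in young adults, 153.6, 249.3 and 579.8 in old animals and 360.8 and 311.7 in AD-like animals. Both AD-like females exceeded all young adults, which 2.59% of genes did (3.2% were all lower), with a log2 difference of 0.70 (SE 0.44, p = 0.124, adjusted p = 1.0). Against old animals the difference was 0.36 (SE 0.42).

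The synapsins, which tether vesicles to the reserve pool, gave unlike values between probe sets. SYN1 (1553264_a_at) had medians of 2576.6 in young adult and 1494.3 in old animals with 2013.9 and 1142.2 in AD-like animals, a log2 difference of -0.62 with age (SE 0.31, p = 0.0597, adjusted p = 0.836) that a second probe set, 221914_at, put at 0.14 (SE 0.19). Quantile normalization gave -0.92 (limma, p = 0.00446, adjusted p = 0.789). The lowest old signals of SYN1, 758.7 and 1007.6, were those of old females 4 and 6. Their arrays had the highest log2 ratios of the 3' to the 5' GAPDH probe sets, a sign of RNA degradation (1.56 and 1.22). The probe set that represents SYN2 differed by -0.10 (SE 0.37) with age and 0.20 (SE 0.55) in AD-like against old animals, while SYN2 probe set 1553037_a_at gave -0.92 (SE 0.42, limma p = 0.0386) for the latter. SLC17A7, the vesicular glutamate transporter of cortical excitatory neurons, had medians of 1955.3 and 1945.0 in young adult and old animals and 1748.8 and 1419.9 in AD-like animals, with log2 differences of -0.14 (SE 0.26) and -0.10 (SE 0.39).

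RAB3B, one of the GTPases that recruit vesicles to release sites, had medians of 277.0 in young adult and 438.4 in old animals, and 349.7 and 152.3 in AD-like animals. Its difference with age was 0.68 (SE 0.38, p = 0.0857, adjusted p = 0.850). This ran from 0.33 to 0.93 with 1 animal left out and was 0.38 on the arrays with poly-A control RNA, young adult male 2 being the lowest at 64.1. It was -0.78 (SE 0.57) in AD-like against old animals, with female 2 alone below all old animals. RAB3C differed by 0.14 (SE 0.34) and 0.22 (SE 0.51). Over the 11 tested vesicle proteins and RAB3 genes the medians were 0.13 with age and -0.10 in AD-like against old animals.

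**Figure D4:**
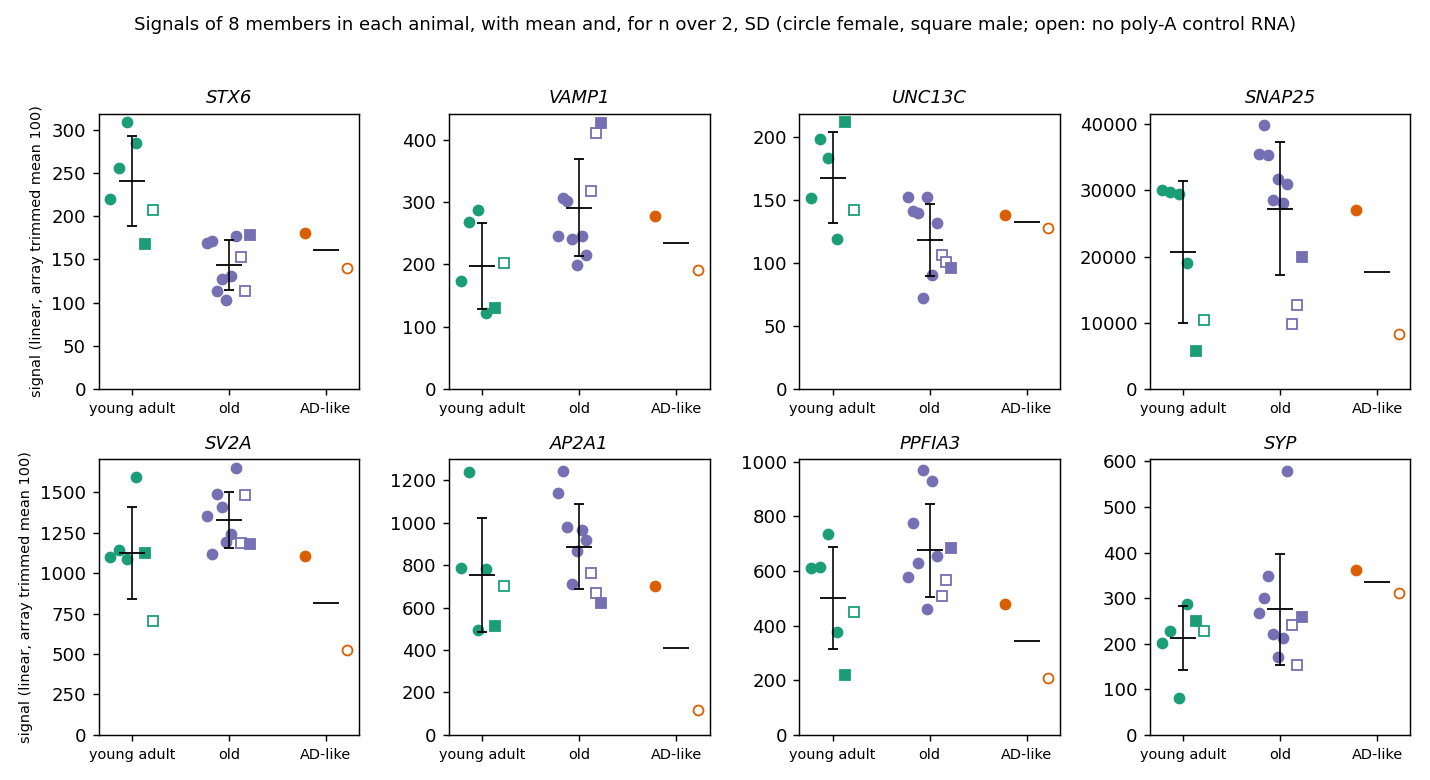
Linear signals of 8 members in each animal, with the group mean and, for groups above 2 animals, the SD; circles are females, squares males, and open symbols arrays without poly-A control RNA. STX6 and UNC13C lay lower and VAMP1 higher in most old animals, and AD-like female 2 was the lowest of all 18 animals for SV2A, AP2A1 and PPFIA3.

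The active zone scaffolds had a median of -0.48 in AD-like against old animals over 9 genes, 7 of them lower (54.4% of all genes were). Against young adults it was -0.28, with 8 of them lower (49.6% of all genes). This rested on female 2, since without her the medians were 0.03 and 0.03, with 6 of 9 genes above 0 against old animals, and the level of the role was 0.05 in female 1 and -0.83 in female 2. Their median with age was -0.03. PPFIA3, a liprin that organises the release site, measured 220.6, 530.7 and 733.8 in young adults, 460.3, 643.2 and 970.7 in old animals and 479.0 and 210.0 in AD-like animals. Female 1 was at the low end of the old range and female 2 below it. The log2 difference was -1.01 (SE 0.40; limma, p = 0.0183, adjusted p = 0.939), -0.45 without female 2, and a second probe set gave -0.48 (SE 0.34). The age difference of PPFIA3 was 0.48 (SE 0.26, p = 0.0834), and -0.14 on that second probe set.

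UNC13C, a priming factor related to UNC13A, was the other member lower in old animals. Its signals were 119.2, 167.8 and 211.7 in young adults and 72.3, 119.0 and 152.8 in old animals, all 10 below the young adult median, with 137.9 and 127.9 in AD-like animals. The log2 difference was -0.46 (SE 0.20; limma, p = 0.0343, adjusted p = 0.836). It ranged from -0.54 to -0.39 with 1 animal left out, and lost the threshold without young adult female 2, female 3 or male 1 or old female 4, female 6 or male 3. It also missed the threshold on arrays with poly-A control RNA (-0.46, p = 0.0616) and under quantile normalization (-0.41, p = 0.0755). The lowest signals, 72.3 and 90.4, were those of old females 4 and 6, whose arrays had the highest log2 ratios of the 3' to the 5' GAPDH probe sets, a sign of RNA degradation (1.56 and 1.22, against -0.10 to 0.79 on the other arrays). The signals lay near the minimum of 150, and no test was made of UNC13C with a minimum of 300.

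BSN, bassoon, one of the giant scaffolds that hold the active zone together, had no old animal above the young adult median of 293.5 (old median 228.3), with a log2 difference of -0.58 (SE 0.36, p = 0.126, adjusted p = 0.856), and AD-like signals of 278.5 and 193.3. PCLO, piccolo, its relative, was at 7330.2 in female 1 and 2270.5 in female 2, against 2833.6 to 10349.1 in old animals. RIMS1, the scaffold that links vesicles to calcium channels, had medians of 6210.6 and 5948.5 in young adult and old animals and 5386.2 and 2721.7 in AD-like animals. Its log2 differences were -0.18 (SE 0.32) with age and -0.48 (SE 0.48) in AD-like against old animals.

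ERC1, a scaffold of the same complex, was the reverse of the others between the AD-like females, at 31.6 in female 1 and 291.6 in female 2, against 35.7 to 342.1 in old animals. These signals were of probe set 1552663_a_at. On 215606_s_at the AD-like values were 95.6 and 102.1 (22.3 to 170.3 in old animals). On 226049_at they were 90.3 and 147.0 (109.2 to 207.4 in old animals). ERC1 was named after its values were seen, as 1 of 4 members for which female 1 lay under all old animals, the others being SYT11, SV2A and DNM1.

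AP2A1, the large alpha subunit of the AP2 clathrin adaptor, had the smallest p of the comparison of AD-like with old animals. Its signals (223237_x_at) were 495.1, 743.4 and 1239.7 in young adults, 623.2, 892.6 and 1241.8 in old animals, and 699.7 and 114.9 in the AD-like females. Female 1 was within the old range and female 2 was far below any other animal. The log2 difference was -1.53 (SE 0.45, 95% interval -2.46 to -0.60; limma, p = 0.00262, adjusted p = 0.695) and -1.26 (SE 0.47, p = 0.0143, adjusted p = 1.0) against young adults. It was -0.30 without female 2. Without female 1 it was -2.75 with an adjusted p of 0.0336, where female 2 alone stands for the group and is assumed to vary like the others. The mean over the tested AP2A1 probe sets did not pass the unadjusted threshold, since the other 3 gave -0.12, -0.23 and -0.57.

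The remaining subunits of AP2 did not pass the threshold in AD-like against old animals. AP2B1, its beta subunit, differed by 0.24 (SE 0.50), AP2M1, its cargo-binding subunit, by -0.37 (SE 0.41) and AP2S1, its small subunit and a gene of the wider list, by -0.49 (SE 0.44). Differences between the subunits were not tested. With age AP2B1 differed by -0.26 (SE 0.33), AP2M1 by 0.19 (SE 0.27) and AP2S1 by 0.08 (SE 0.29).

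DNM1 is the neuronal dynamin that cuts endocytic vesicles from the membrane. Like ERC1 on the probe set that represents it, DNM1 was lower in AD-like female 1 than in any other animal. It measured 88.0, 293.6 and 348.7 in young adults, 135.2, 275.7 and 385.1 in old animals and 68.5 and 172.8 in AD-like animals. The log2 difference from old animals was -1.08 (SE 0.47; limma, p = 0.0336, adjusted p = 0.972), -1.66 without female 2 and -0.50 without female 1. On the arrays with poly-A control RNA, DNM1 and ERC1 were the 2 members lower in AD-like animals at the unadjusted threshold (3.55% of genes), with female 1 alone for the group.

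The clathrin light chains CLTA and CLTB form the coat together with the heavy chain. CLTB measured 472.3, 982.4 and 1230.2 in young adults, 760.4, 1272.8 and 1534.2 in old animals and 1147.1 and 387.0 in the AD-like females. The difference of CLTB from old animals was -0.81 (SE 0.38; limma, p = 0.0437, adjusted p = 0.972) and -0.04 without female 2. CLTA differed by 0.44 (SE 0.24, p = 0.0886) with age and -0.55 (SE 0.37, p = 0.145) in AD-like against old animals, the latter being -0.11 without female 2 and -0.99 without female 1. Another CLTA probe set, 216295_s_at, gave 0.53 with age (limma p = 0.0446).

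The clathrin heavy chain CLTC was at 23359.4 and 14492.2 in AD-like animals, against 8259.4, 23839.7 and 31673.0 in old animals, with log2 differences of 0.27 (SE 0.31) with age and -0.18 (SE 0.46). SNAP91, the neuronal clathrin assembly protein AP180, measured 8849.5 and 3562.9 in AD-like against 3305.9, 7360.6 and 9429.8 in old animals, with 0.40 (SE 0.31) and -0.20 (SE 0.46). Over the 12 endocytosis genes tested, 10 had an age difference above 0, with a median of 0.24, and 10 had a difference below 0 between AD-like and old animals, with a median of -0.19. Of all genes, 55.8% lay above 0 with age and 54.4% below 0 in AD-like against old animals. These shares were 79.7% and 75.7% among all genes with a mean signal of 500 or more. Under quantile normalization the endocytosis medians were 0.08 and -0.08.

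More members were called lower for the AD-like group once the males were left out, up from 5 with all animals. Over all genes the share called lower was 3.83% with all animals, and it rose too. Leaving out the males also removed the arrays of young adult male 2 and old males 1 and 2, which lacked poly-A control RNA. Whether sex caused the rise was not tested. Both AD-like animals were females, and with females only, 13 members lay below the 7 old females at an unadjusted p of 0.05 (9.06% of all genes did) and none above (3.44%), with none past an adjusted p of 0.05. These were AP2A1, SYNGR3, SNAP25, STX1A, PPFIA3, DNM1, CLTB, SV2A, CLTA, RIMS1, ERC2, SYNGR1 and SYT5. The log2 difference in females was -1.12 for SNAP25 (SE 0.37; limma, p = 0.00848, adjusted p = 0.296), -0.95 for SYNGR3, a synaptogyrin of the vesicle membrane (SE 0.28, p = 0.00372, adjusted p = 0.275) and -1.25 for STX1A (SE 0.42, p = 0.00949, adjusted p = 0.296). The median over the members was -0.32. All 7 old females had arrays with poly-A control RNA, so that AD-like female 2 was the 1 animal of this comparison without it. Without her the differences from all old animals, males included, were 0.11 for SNAP25, -0.46 for SYNGR3 and -0.78 for STX1A. These have another reference group than the values in females, and no fit of females without her was made. AD-like female 1 was at 27065.2 for SNAP25, 482.7 for SYNGR3 and 363.6 for STX1A. Each signal was below the lowest of the old females (28070.6, 605.5 and 508.7), and the share of all genes like this was not computed. With sex as a covariate over all animals, 12 members were lower (8.7% of genes). Of the 3 old males that these settings set aside or adjust for, males 1 and 2 had arrays without poly-A control RNA, so sex and array cannot be told apart for these 2.

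The age difference was also set against sex. The difference between females and males in their age differences passed an unadjusted p of 0.05 for SLC17A7 (1.30, SE 0.47, p = 0.0122; 2.08% of genes in that direction), RAB3B (-1.69, SE 0.65, p = 0.0176) and DNM1 (-1.42, SE 0.57, p = 0.0230; 2.31% of genes), each with an adjusted p of 0.998 in limma. Within females, old and young adult animals differed for STX6 (-0.86, SE 0.22, p = 0.00114, adjusted p = 0.999), the 1 member lower (1.41% of genes), and no member was higher (2.56% of genes). Within males 6 members were higher (5.2% of genes) and 1, SLC17A7, was lower (-1.03, SE 0.39, p = 0.0157, adjusted p = 0.553; 2.68% of genes). No member passed the adjusted threshold in males, as 1 probe set of the table did (0.00686%). The higher ones were RAB3B (1.80), VAMP1 (1.16), RAB3GAP1, a regulator of RAB3 (1.14), DNM1 (1.07), SYT11 (0.70) and SYT13 (0.70). The male comparison rests on 2 young adult and 3 old males, and 3 of these 5 arrays lacked poly-A control RNA.

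Members varied within groups about as other genes did, with a median SD of 0.58 on the log2 scale against 0.60 over all genes. SYT13 (0.27), SYT11, STX6 and PPFIA2 (0.28 each) varied least, and SYNGR3 (0.92) and VAMP2 (0.89, on probe set 201556_s_at) most. Of the 24 members with several tested probe sets, 13 had probe sets of opposite sign in the age comparison and 7 in AD-like against old animals. Among these were STX6, SYN1, SYN2, PPFIA3 and VAMP2 for age and SYN2, ERC1, PCLO and RIMS1 for AD-like against old animals.

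A wider list of 90 genes of the vesicle cycle, such as other syntaxins, proton pump subunits and trafficking factors, gave 68 tested genes with medians of 0.05 with age and -0.08 in AD-like against old animals. At an unadjusted p of 0.05, 4 were higher in old animals (NSFL1C, STX8, NAPG and RAB27B) and 2 were lower (GOSR2 and DOC2B). Of all genes, 3.57% were called higher and 2.26% lower with age. NSFL1C, a cofactor of the membrane fusion ATPase p97, differed by 0.57 (SE 0.19; limma, p = 0.00749, adjusted p = 0.836), STX8, an endosomal syntaxin, by 0.65 (SE 0.25, p = 0.0148) and GOSR2, a Golgi SNARE, by -0.97 (SE 0.40, p = 0.0245). NSFL1C and NAPG had also been picked out by the study on these animals. In AD-like against old animals, APBA1, an adaptor that binds the syntaxin regulator of the synapse, was the single gene of the list lower at that level (-0.85, SE 0.34, p = 0.0223, adjusted p = 0.954), followed by RAB3D (-1.12, SE 0.58) and BLOC1S1 (-0.79, SE 0.43). Over all genes, 3.83% were called lower in this comparison.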

How the data were processed

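Temporal cortex RNA of 18 lemurs was hybridised to human HG-U133 Plus 2.0 arrays. The deposited values are linear intensities (signals) computed by the authors in Affymetrix software, GCOS 1.2 per the submitters' processing notes, and scaled to a trimmed mean of 100 on every array. Detection calls were not used. Human probes were read against lemur RNA, so mismatches can lower a signal, and no probe set's level was compared with another's. Probe sets were named through GEO's platform annotation. Of 14567 probe sets tested (signal of 150 or more on at least 3 arrays), 12435 had 1 symbol, 576 several, which were not used for genes, and 1556 none; 8660 genes were represented by their probe set of highest mean signal. Log2(signal + 16) was fitted with limma 3.58.1 in R 4.3.3, the 3 groups in one model, and p-values were adjusted (Benjamini-Hochberg) over all probe sets tested. A fold on this scale understates changes of dim genes. Age by sex used 5 groups in one model. The methods were tested on simulated data.

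The members and lists were chosen with earlier results of these data known. Named with values were the 10 members with the smallest p in each comparison of groups, members without overlap between AD-like and old animals, a core set covering each role, and the 3 related genes with the smallest p in each of the first 2 comparisons. Groups share animals between comparisons. Animal numbers recur in the groups, but deviations of same-numbered animals correlated between -0.269 and 0.47, so the numbers did not pair the animals. Each array is 1 animal. The number of arrays, 2 in the AD-like group, limits the precision. Alternatives were other offsets, normalizations, filters, probe set rules, variance models, covariates, blocks, females only, and leaving out each animal in turn. The GAPDH covariate was added after seeing the data.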

Additional observations from a re-analysis of the deposited data

Results flagged for a closer look

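In 2 of the 56 pairs of a named member and a group of at least 6 animals, 1 animal stood apart from the rest of its group by Dixon's criterion, which chance alone gives in about 1 group in 20. CLTB had a signal of 472.3 in young adult male 2, whose array lacked poly-A control RNA, against 911.4 in the next young adult. SYP had a signal of 81.7 in young adult female 3, against 202.0 in the next.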

How the results depend on the processing

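No member passed an adjusted p of 0.05 with all animals, and only AP2A1 did with 1 animal left out, as given above. Counts at an unadjusted p of 0.05 were small and moved with the settings. For AD-like against old animals, the share of all genes called lower moved too. It was 3.83% with all animals, 9.06% in females, 8.7% with sex as a covariate and 3.55% on arrays with poly-A control RNA. For most other settings the share of all genes was not computed, so the counts below are no result about the members. Members above young adults in old animals (1) numbered 0 with array weights or in females only, 2 with sex as a covariate or a replicate block, 5 with the presence of poly-A control RNA as a block, 4 by the methods' test on linear signals and 0 to 2 leaving out 1 animal. On arrays with poly-A control RNA the count stayed at 1, with ERC2 in place of VAMP1. Members lower in old animals (2) numbered 1 with median centring, no filter, array weights, the mean over probe sets, females only, the replicate block or the GAPDH 3' to 5' ratio as a covariate, 3 with quantile normalization (STX6, SYN1 and RIMS1) or the presence of poly-A control RNA as a block (STX6, UNC13C and SNAP47), 0 with a minimum of 300 (where STX6 and UNC13C drop out) and 1 to 4 leaving out 1 animal. For AD-like against old animals, the higher members (0) numbered 1 with no filter and 1 with the replicate block. The lower members (5) numbered 3 with quantile normalization or the mean over probe sets, 13 in females, 12 with sex as a covariate, 11 with the replicate block, 2 on arrays with poly-A control RNA and 2 to 6 leaving out 1 animal. Their median of -0.20 was -0.49 with the replicate block and lay between -0.48 and 0.00 leaving out 1 animal, -0.48 without AD-like female 1 and 0.00 without female 2, and members past an adjusted p of 0.05 numbered 0 to 1. For AD-like against young adult animals, the higher members (0) numbered 1 with no filter, and the lower (1) numbered 2 with quantile normalization, a minimum of 300, trended and robust variances or arrays with poly-A control RNA, 3 with array weights, 0 with the mean over probe sets or the methods' test, 7 in females, 5 with sex as a covariate, 8 with the replicate block and 1 to 4 leaving out 1 animal. Their median of -0.12 was -0.47 with the replicate block and between -0.36 and 0.01 leaving out 1 animal. The cause of these moves was not tested.

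NAPA changed sign to 0.00 in AD-like against old animals on arrays with poly-A control RNA. Against young adults, STX6 turned to 0.10 with the mean over its probe sets, and SV2A to 0.01 without AD-like female 2 (from -1.04 to 0.01 leaving out 1 animal). The age median was 0.13 to 0.28 leaving out 1 animal. The replicate numbers did not pair the animals, so the block is given as a setting and not as a test of weaker or stronger effects. With 2 AD-like animals, that group's precision is the limit, and signals near the array background restrict the dim members.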
